A study of Mus musculus with 12 samples.

Results

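Mouse primordial germ cell-like cells (PGCLCs) at day 7 of an expansion culture (d4c7) were compared with PGCLCs at day 3 of the same culture (d4c3), across all measured genes. The comparison takes 4 libraries of 12, 2 per day, chosen by their labels. Of 26218 gene rows, 10856 reached at least 5 RPM (reads scaled to 1e+06 reads in genes) in at least 2 of the 12 libraries and were tested, and 15362 did not. PGCLCs at culture day 5 (d4c5, 2 libraries) served as the midpoint, and germ cells of embryonic day 9.5 (E9.5) and of male and female embryos at E12.5 (2 libraries each) as a reference.

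All PGCLC groups came from C57BL/6 embryonic stem cells that carry the Blimp1-mVenus and Stella-ECFP reporters, which are driven by control regions of Prdm1 and Dppa3. The stem cells were kept in 2iLIF and taken to an epiblast-like state with Activin A, bFGF and KSR. Germ cell fate was then induced in floating culture with BMP4, LIF, SCF and EGF. Cells with mVenus fluorescence were sorted at day 4 of induction and plated on m220 stromal feeder cells, mostly the mitomycin C-resistant line m220-5, and reporter-positive cells were sorted again on culture day 3, 5 or 7. The culture medium is not given in the sources used here. Embryonic germ cells were of an ICR and C57BL/6 background in equal parts, and were sorted for their Stella-EGFP reporter. Libraries were 3′-end libraries from amplified cDNA, made from 10 ng of RNA in culture and 1 ng in the embryo. No source used here says whether the libraries of a group came from separate cultures, so the p-values measure the spread between these samples, which may be technical.

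Primordial germ cells are the founders of sperm and eggs. After their specification they hold a core of pluripotency genes, repress somatic genes and lose DNA methylation across the genome, and on reaching the gonad they switch on late germ cell genes such as Dazl and Ddx4. Many of those genes have methylated promoters in somatic cells. In the fetal ovary, retinoic acid then induces Stra8 and meiosis begins.

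The 5 promoters below belong to genes that carry the main result. Dazl, Hormad1 and Tuba3a belong to a list of late germ cell genes reported to depend on promoter methylation, Stra8 had the lowest starting level, and Phlda2 had the largest fall among genes whose call did not depend on any 1 library. Each runs from 250 bases before to 50 bases after a transcript start of the gene, 5′ to 3′ on the gene's strand, from RefSeq on GRCm38.p6. For Stra8 and Phlda2 the gene annotation reaches farther upstream, to bases 34920163 and 143503145, so these windows lie within the annotated gene. Capitals mark CpG, the dinucleotide that DNA methyltransferases act on.
Dazl, chr17:50293571-50293870, minus strand: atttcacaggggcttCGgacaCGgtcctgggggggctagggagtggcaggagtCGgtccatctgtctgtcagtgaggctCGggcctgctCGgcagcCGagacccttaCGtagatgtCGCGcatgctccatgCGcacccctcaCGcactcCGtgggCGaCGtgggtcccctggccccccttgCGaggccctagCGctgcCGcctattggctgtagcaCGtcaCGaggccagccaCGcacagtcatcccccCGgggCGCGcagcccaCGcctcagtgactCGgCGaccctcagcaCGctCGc
Hormad1, chr3:95559427-95559726, plus strand: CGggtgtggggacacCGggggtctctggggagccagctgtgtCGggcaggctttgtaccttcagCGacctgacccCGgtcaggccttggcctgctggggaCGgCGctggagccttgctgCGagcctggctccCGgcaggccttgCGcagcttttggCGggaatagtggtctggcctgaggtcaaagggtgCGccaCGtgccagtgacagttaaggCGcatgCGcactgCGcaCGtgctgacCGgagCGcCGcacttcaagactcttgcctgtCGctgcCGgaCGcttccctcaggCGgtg
Tuba3a, chr6:125286032-125286331, minus strand: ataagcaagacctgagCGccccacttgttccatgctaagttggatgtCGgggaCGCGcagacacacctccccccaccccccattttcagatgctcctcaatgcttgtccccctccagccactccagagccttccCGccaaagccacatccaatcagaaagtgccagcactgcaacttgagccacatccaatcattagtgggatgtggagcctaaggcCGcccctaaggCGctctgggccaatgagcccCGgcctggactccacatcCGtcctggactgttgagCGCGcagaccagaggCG
Stra8, chr6:34920698-34920997, plus strand: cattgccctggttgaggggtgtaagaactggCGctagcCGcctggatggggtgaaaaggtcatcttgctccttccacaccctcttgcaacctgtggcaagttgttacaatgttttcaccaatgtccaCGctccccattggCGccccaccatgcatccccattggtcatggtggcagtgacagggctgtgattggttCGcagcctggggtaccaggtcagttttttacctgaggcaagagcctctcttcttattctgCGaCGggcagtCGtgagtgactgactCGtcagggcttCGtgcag
Phlda2, chr7:143502475-143502774, minus strand: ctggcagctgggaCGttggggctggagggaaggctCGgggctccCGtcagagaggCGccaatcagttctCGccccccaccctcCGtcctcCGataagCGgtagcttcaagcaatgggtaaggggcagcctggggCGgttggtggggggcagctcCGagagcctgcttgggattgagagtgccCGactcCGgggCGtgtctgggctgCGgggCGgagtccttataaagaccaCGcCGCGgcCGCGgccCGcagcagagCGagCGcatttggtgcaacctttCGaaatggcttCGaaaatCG
The Dazl window holds 28 CpG, Phlda2 26, Hormad1 24, Tuba3a 12 and Stra8 10. Methylation was not measured in these libraries.

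The 4 libraries held germ cells by their markers. All 9 germ cell markers were at 5 RPM or more in each of the 4 libraries, while 5 blood and endothelium markers were at 0 in each. The 8 feeder and stroma markers, with Lum at 0, summed to 11 and 13.8 RPM at d4c3 and 24.7 and 8.45 RPM at d4c7. Of these, Pdgfrb was at 5.48 to 7.46 RPM in the 4 libraries, and Col1a1 and Col3a1 were at 5.50 and 9.42 RPM in d4c7 replicate 1. Endoderm markers reached at most 0.689 RPM in sum. The labelled identity matched the germ cell markers at both days. Prdm1 and Dppa3 are among the 9, and their control regions drive the reporters, so the sort may have fixed part of this result. Reads in genes were estimated at 2260137 to 2563110 in 3 of the libraries and at 5817990 in d4c7 replicate 2, so 3 reads are worth 1.17 and 1.33 RPM at d4c3 and 1.18 and 0.517 RPM at d4c7. That library also held no read of the ERCC spike-in RNAs, which summed to 64.8 to 72.7 RPM in the other 3.

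Genes with more RNA at culture day 7 than at day 3 included 10 of 32 tested late germ cell genes. They also included 5 of 22 meiotic genes and 4 of 14 piRNA pathway genes. The lists share members, so Hormad1, Sycp3, Fkbp6, Gpat2 and Ddx4 are counted more than once. A smaller group, led by Phlda2, had less RNA. In limma, 298 of 10856 genes (2.75%) were called at an adjusted p under 0.05, of which 181 rose (1.67%) and 117 fell (1.08%). The median change was 1.29 on the log2 scale among those that rose and -1.19 among those that fell, and 199 changed at least 2-fold. The values of all 298 did not overlap between the groups, as was so for 41.3% of all tested genes. Of all 10856 tested genes, 1797 had an unadjusted p under 0.05 in limma, 5659 had a log2 change above 0 and 5167 below 0. These are bulk samples, so a change in the share of cells with a transcript and a change in its level per cell cannot be told apart.

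Of the 298 calls, 27 were also made when each of the 4 libraries was left out in turn, 18 higher (0.166% of tested genes) and 9 lower (0.0829%). Of the others, 58 were called in 3 of these 4 fits, 61 in 2, 135 in 1 and 17 in none. Leaving out d4c3 replicate 1 gave 31 calls, all among the 298. It was 140 without d4c3 replicate 2, 263 without d4c7 replicate 1 and 786 without d4c7 replicate 2, of which 113, 143 and 252 were among the 298. The spread in the model is shared with the embryonic libraries, whose replicate pairs lay closer together (root mean squares of log2 differences 0.33 to 0.40, against 0.42 to 0.56 in culture). A fit to the 6 culture libraries alone called only Phlda2, and a fit that gives culture libraries a lower weight called 112 genes, all of the 27 among them (highest adjusted p = 0.0122). The results below therefore start from the 27 genes and name the library on which other calls rest.

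**Figure D1:**
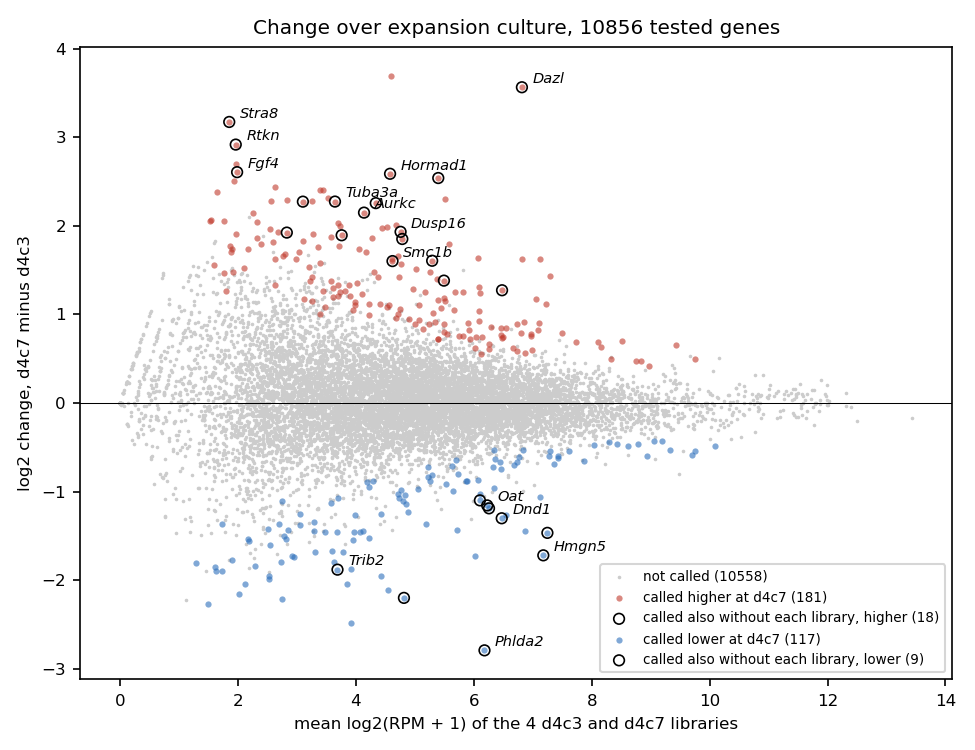
Each point is 1 of the 10856 tested genes, with its mean log2(RPM + 1) over the 4 compared libraries on the x axis and its log2 change from d4c3 to d4c7 on the y axis; red points are the 181 called higher, blue points the 117 called lower, and circles the 27 genes called also without each library in turn. Dazl lies at 3.56 and Phlda2 at -2.79, and called changes are smaller toward high mean levels.

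Among germ cell RNA-binding proteins, Dazl, a translational regulator that germ cells need to develop beyond the primordial stage, had the largest rise on the log2(RPM + 1) scale among the 27 genes. It was at 32.5 and 31.1 RPM at d4c3, at 376 and 171 RPM at d4c5 and at 505 and 296 RPM at d4c7. All 4 later libraries were above both day 3 libraries, while days 5 and 7 overlapped. The log2 change from day 3 to day 7 was 3.56 ± 0.29 (SE; limma, adjusted p = 3.15e-05). Rbm44, whose product lies in the bridges between germ cells, was at 3.13 and 2.22 RPM at d4c3 and 12.6 and 13.1 RPM at d4c7 (log2 change 1.92 ± 0.28, adjusted p = 0.0029). Its day 5 values of 19.4 and 11.7 RPM already spanned those of day 7. Dnd1, an RNA-binding protein that protects primordial germ cells, went the other way, from 150.2 and 128 RPM through 86.1 and 84.5 RPM to 49.1 and 62.9 RPM (log2 change -1.30 ± 0.14, adjusted p = 0.00033). Its 3 days did not overlap. The gene overlaps Wdr55 in the annotation, and whether reads were counted by strand is not given in the sources used here.

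Of 19 tested genes in the list of germ cell RNA-binding regulators, 3 rose and 2 fell. Their median log2 change was 0.00, against 0.02 for all tested genes. Besides Dazl and Dnd1 they were Ddx4, Nanos1 and Lin28b. Ddx4, the germ cell helicase known as Vasa, was at 50.5 and 42.7 RPM and then 118 and 78.9 RPM. Nanos1, which encodes a translational repressor of the Nanos family, was at 0.391 and 0.444 RPM and then 7.07 and 3.27 RPM, with both day 3 values under that of 3 reads. Lin28b, which blocks maturation of let-7 microRNAs, was at 16 and 13.3 RPM and then 5.10 and 5.17 RPM. The groups of each gene stood apart. With d4c3 replicate 1 left out, adjusted p-values were 0.107 (Ddx4), 0.139 (Nanos1) and 0.121 (Lin28b), and Ddx4 and Nanos1 also lost the call without d4c3 replicate 2 (0.136 and 0.0733) or d4c7 replicate 1 (0.0721 and 0.0946). Lin28a, the paralog of Lin28b, was at 25.0 and 17.7 RPM and then 6.28 and 15.2 RPM and was not called (adjusted p = 0.164), and Nanos3, which primordial germ cells need to survive, was at 9.0 and 11.1 RPM and then 9.42 and 15.2 RPM (adjusted p = 0.725).

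Stra8, Hormad1, Smc1b, Hsf2bp and Aurkc, which act in meiosis, rose from low levels. Stra8, the retinoic acid-induced regulator of meiotic entry, was at 0 and 0.444 RPM at d4c3, at 0.390 and 0.452 RPM at d4c5 and at 11 and 8.79 RPM at d4c7. Every day 3 and day 5 value was under that of 3 reads, and both day 7 values were well above it. The log2 change, on the log2(RPM + 1) scale that understates the change of low genes, was 3.17 ± 0.38 (adjusted p = 0.000763). Hormad1, a protein of the meiotic chromosome axis, was at 8.21 and 9.32 RPM, 40.3 and 24.2 RPM and 69.1 and 48.0 RPM on days 3, 5 and 7 (log2 change 2.59 ± 0.26, adjusted p = 0.000212). Smc1b, a cohesin subunit of meiotic chromosomes, was at 12.52 and 13.8 RPM, 25.3 and 27.6 RPM and 42.0 and 41.7 RPM (log2 change 1.60 ± 0.17, adjusted p = 0.000401). For both genes each day lay above the day before without overlap. Hsf2bp, a partner of BRCA2 in meiotic recombination, was at 12.1 and 15.1 RPM at d4c3 and 59.7 and 44.3 RPM at d4c7 (log2 change 1.85 ± 0.23), and Aurkc, the Aurora kinase of meiotic divisions, was at 8.21 and 6.58 RPM and then 30.5 and 42.6 RPM (log2 change 2.15 ± 0.29). Smc1b overlaps Fam118a in the annotation.

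Of 22 tested genes of the list of meiotic entry and chromosome axis, 5 rose and 1 fell, 18 lay above 0, and the median log2 change was 0.48. Sycp3, which forms the lateral elements of the synaptonemal complex, rose from 9.0 and 3.99 RPM to 26.7 and 20.2 RPM, and Stag3, a meiotic cohesin subunit, rose from 23.1 and 31.1 RPM to 47.9 and 52.9 RPM. Syce2, of the central element of the same complex, was the member that fell. The call of Sycp3 was lost without either d4c3 library (adjusted p = 0.0502 and 0.178 for replicates 1 and 2) and without d4c7 replicate 1 (0.0775), and the highest adjusted p of Stag3 with a library left out was 0.15. Among members that were not called, Spo11, which makes the meiotic double-strand breaks, was at 1.17 and 3.55 RPM and then 0.393 and 3.79 RPM, Dmc1, the meiotic recombinase, at 5.09 and 2.66 RPM and then 4.71 and 5.69 RPM, and Sycp1, the transverse filament protein, at 1.96 and 1.77 RPM and then 7.46 and 4.14 RPM. Their adjusted p-values were 0.844, 0.627 and 0.104. Rec8, the cohesin subunit that is induced with Stra8 in the fetal ovary, was at 6.65 and 10.6 RPM and then 9.82 and 14.8 RPM (adjusted p = 0.557). Over the list, 3 to 7 members were called when a library was left out.

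Among piRNA pathway genes, whose products silence transposons in germ cells, Fkbp6, a co-chaperone, was at 21.5 and 21.5 RPM at d4c3, 59.8 and 41.3 RPM at d4c5 and 74.4 and 61.1 RPM at d4c7 (log2 change 1.61 ± 0.18, adjusted p = 0.000429). Gpat2, a protein of the mitochondrial surface that piRNA production needs, was at 5.09 and 7.10 RPM, 20.3 and 18.1 RPM and 25.5 and 24.6 RPM (log2 change 1.89 ± 0.25, adjusted p = 0.0017). The 3 days did not overlap for either gene, and the larger step was the one before day 5. Of 14 tested members 4 rose and none fell, 13 lay above 0, and the median log2 change was 0.78. The summed RPM of the list overlapped between the days, at 5371 and 4881 RPM and then 6425 and 5136 RPM. The others that rose were Ddx4 and Piwil2, the Piwi protein gene expressed in these cells, from 52.8 and 44.8 RPM to 108 and 80.5 RPM. Piwil2 lost the call without either d4c3 library (adjusted p = 0.0553 and 0.0675). Mael, Tdrd12, Mov10l1 and Asz1, which act in the same pathway, had log2 changes of 0.69, 0.61, 0.87 and 1.23 and were not called. Between 2 and 5 members were called when a library was left out, and 4 in the weighted fit.

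The list of late germ cell genes sensitive to DNA methylation, which shares members with the lists above, had the highest median of any list, 0.90 on the log2 scale. Of 32 tested members 10 rose and none fell, and 27 were above 0. Tuba3a and Tuba3b, alpha-tubulins of the testis, rose from 4.30 and 5.10 RPM to 19.6 and 35.7 RPM and from 2.35 and 3.55 RPM to 13.4 and 23.8 RPM (log2 changes 2.27 ± 0.26 and 2.27 ± 0.29). They are near copies of each other, so reads may be divided between them. The rest of the 10 were Dazl, Hormad1, Gpat2, Fkbp6, Ddx4, Sycp3, Stk31 and Xlr3b. Stk31, a Tudor domain protein of germ cells, was at 21.5 and 23.5 RPM and then 71.1 and 42.2 RPM, and lost the call without either d4c3 library (adjusted p = 0.162 and 0.0701) or without d4c7 replicate 1 (0.0703). Some members did not follow: Rhox6, a homeobox gene of germ cells and placenta, was at 735 and 819 RPM and then 850.3 and 674 RPM, and Brdt, a bromodomain gene of the testis, was at 7.04 and 8.43 RPM and then 13.4 and 5.52 RPM (adjusted p = 0.926 and 0.885). Leaving out a library gave 6 to 14 calls in the list, and the weighted fit gave 8.

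**Figure D2:**
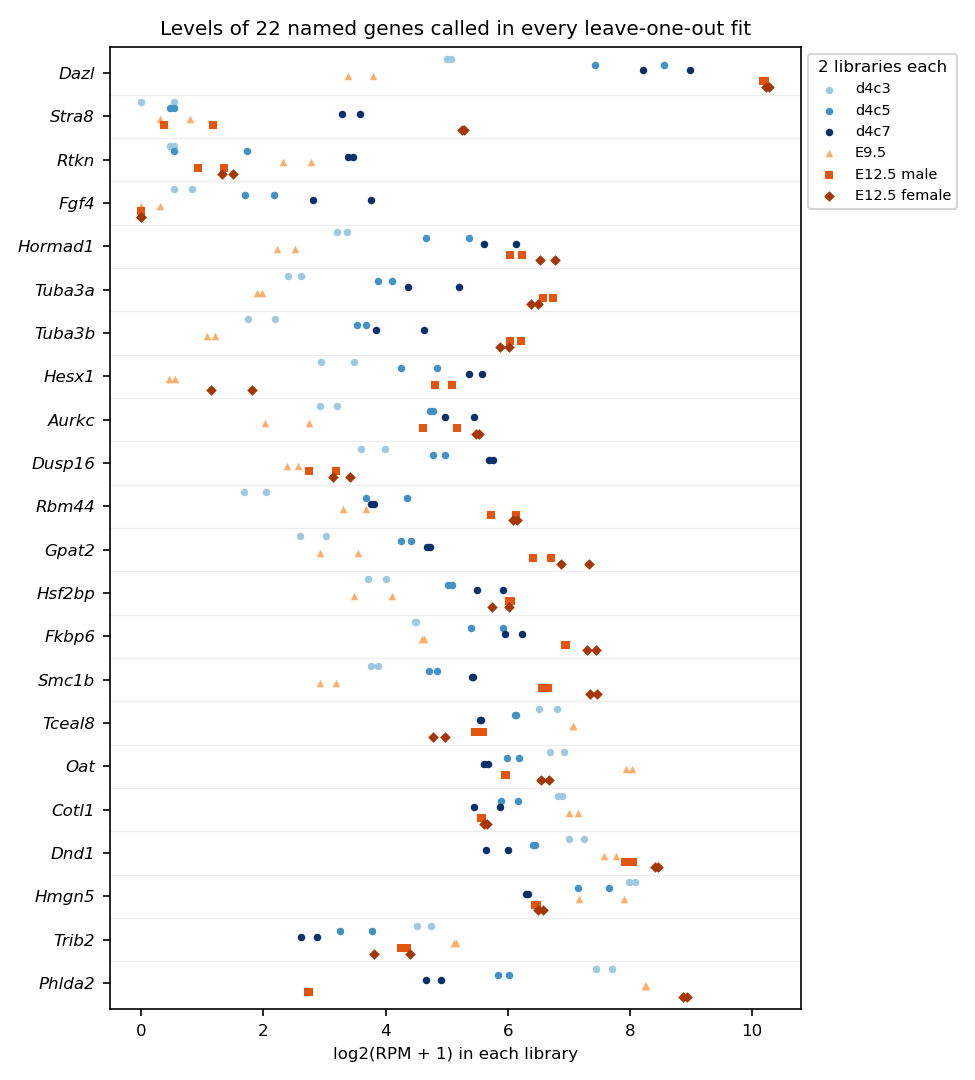
Each row is 1 of 22 named genes among the 27 called also without each library in turn, and each point is 1 library, as log2(RPM + 1); blue circles darken from d4c3 through d4c5 to d4c7, and orange to brown symbols are the embryonic groups. Day 7 lies right of day 3 for Dazl, Hormad1 and Smc1b and left of it for Phlda2, Trib2 and Hmgn5, without overlap.

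Fewer genes fell, and they were spread over several lists. Phlda2, an imprinted gene that restricts growth of the placenta, was at 173 and 208 RPM at d4c3, 63.9 and 56.5 RPM at d4c5 and 24.3 and 29.0 RPM at d4c7. The days did not overlap, and the log2 change was -2.79 ± 0.14 (adjusted p = 1.22e-07, and at most 1.98e-05 without any 1 library). Cyp26a1, which degrades retinoic acid, was at 12.9 and 0.887 RPM and then 22.0 and 10.5 RPM (adjusted p = 0.252). Trib2, a pseudokinase, was at 21.9 and 25.7 RPM, 8.57 and 12.6 RPM and 5.10 and 6.38 RPM (log2 change -1.88 ± 0.27). Hmgn5, which binds nucleosomes and counters linker histone, was at 271 and 253 RPM, 140.3 and 201 RPM and 78.1 and 79.5 RPM (log2 change -1.72 ± 0.20, adjusted p = 0.000535). The 3 days did not overlap for Trib2 or Hmgn5.

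Smaller falls that also held without each library were those of Cotl1, an actin-binding protein, from 117 and 112 RPM to 42.8 and 57.6 RPM (log2 change -1.19 ± 0.16), Oat, the mitochondrial ornithine aminotransferase, from 120.5 and 102 RPM to 50.3 and 48.1 RPM (log2 change -1.16 ± 0.13), and Tceal8, from 110.3 and 90.0 RPM to 45.5 and 46.4 RPM (log2 change -1.10 ± 0.15). Among chromatin architectural proteins Hmgn5 alone was called of 22 tested, although the median was -0.16. Of the 22, 18 had log2 changes under 0, against 5167 of all 10856 tested genes. In the imprinted list 1 of 36 tested genes rose and 2 fell, with a median of 0.10. Igf2, the imprinted growth factor, fell from 14.1 and 12.9 RPM to 1.18 and 3.45 RPM and lost the call without d4c3 replicate 1 (adjusted p = 0.107). H19, the imprinted RNA next to Igf2, was at 58.3 and 59.9 RPM and then 20.8 and 43.3 RPM (adjusted p = 0.12), and Peg3, a paternally expressed gene, was at 359 and 322 RPM and then 405 and 356 RPM (adjusted p = 0.557).

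By difference of mean RPM among called genes, predicted genes left out, the largest falls were those of energy and redox genes at high levels. Slc25a4, an ADP/ATP carrier of mitochondria, was at 1354 and 1218 RPM and then 978 and 863 RPM, and its paralog Slc25a5 was at 1079 and 1004 RPM and then 818 and 624 RPM. Txn1, thioredoxin, was at 1077 and 970.1 RPM and then 615 and 755 RPM, and Cycs, cytochrome c, was at 773 and 771 RPM and then 557 and 512 RPM. The groups did not overlap, and the log2 changes were -0.48, -0.54, -0.58 and -0.53. All 4 calls were lost without d4c3 replicate 1 (adjusted p = 0.196, 0.204, 0.199 and 0.0896), and those of Slc25a5 and Txn1 also without d4c3 replicate 2 (0.0701 and 0.0536), and that of Txn1 without d4c7 replicate 1 (0.0625). Tdh, threonine dehydrogenase, fell from 514 and 518 RPM to 335 and 419.8 RPM and Morf4l2, a subunit of histone acetylation complexes, from 629 and 570.2 RPM to 385 and 405 RPM. Both lost the call without d4c3 replicate 1 (adjusted p = 0.234 and 0.0896), and Tdh also without d4c3 replicate 2 (0.169) or d4c7 replicate 1 (0.168). In the oxidative phosphorylation list none of 86 tested genes was called by limma (median 0.01) and none in the weighted fit, while some were called when either d4c7 library was left out. In limma 19 of the 86 had an unadjusted p under 0.05, against 1797 of all 10856 tested genes.

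Among called genes, predicted genes left out, the largest rises in RPM after Dazl were those of Rpl39l and Spp1. Rpl39l, a ribosomal protein paralog of male germ cells, was at 108 and 83.1 RPM and then 379 and 174 RPM, and Spp1, the secreted protein osteopontin, was at 90.7 and 67.9 RPM and then 333 and 179 RPM. For both, the d4c7 libraries lay farther from each other than replicate 2 lay from day 3. Fabp3, a fatty acid-binding protein, was at 54.8 and 72.3 RPM and then 186 and 207 RPM (log2 change 1.62 ± 0.24). Pmm1, a phosphomannomutase, was at 319 and 257 RPM and then 466 and 462 RPM, and Msh6, of DNA mismatch repair, was at 439.7 and 429 RPM and then 624 and 539 RPM. Spp1 and Pmm1 lost the call without d4c3 replicate 2 (adjusted p = 0.0589 and 0.121) and Fabp3 without d4c3 replicate 1 (0.0815). Rpl39l and Msh6 lost it without d4c3 replicate 1 (0.121 and 0.203), d4c3 replicate 2 (0.167 and 0.169) or d4c7 replicate 1 (0.0919 and 0.14). Of 83 tested cytosolic ribosomal proteins only Rpl39l and Rps9 were called, with 14 called without d4c7 replicate 1.

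Other genes among the 18 that rose are in none of the germ cell lists above. Fgf4, a growth factor of the epiblast, was at 0.782 and 0.444 RPM at d4c3, 3.51 and 2.26 RPM at d4c5 and 12.6 and 6.03 RPM at d4c7 (log2 change 2.61 ± 0.41, adjusted p = 0.00456). Rtkn was at 0.391 and 0.444 RPM, 2.34 and 0.452 RPM and 9.42 and 10.00 RPM (log2 change 2.92 ± 0.41). Both genes were under the level of 3 reads in each day 3 library and above 5 RPM in each day 7 library. Across all 26218 rows 5 genes went from under 1 RPM in both day 3 libraries to at least 5 RPM in both day 7 libraries (0.0191%), Stra8, Fgf4, Rtkn, Trpm1 and Ltk, and none went the other way. Trpm1, a cation channel, was at 6.68 and 5.69 RPM at d4c7 and Ltk, a receptor tyrosine kinase, at 9.03 and 7.24 RPM. Trpm1 lost the call without d4c3 replicate 1 (adjusted p = 0.107), and Ltk without that library (0.211), d4c3 replicate 2 (0.197) or d4c7 replicate 1 (0.112).

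Hesx1, a homeobox repressor of the early forebrain and of pluripotent cells, was at 10.2 and 6.65 RPM, 27.7 and 18.1 RPM and 40.1 and 46.5 RPM on days 3, 5 and 7 (log2 change 2.26 ± 0.33, adjusted p = 0.00316). Dusp16, a phosphatase of JNK and p38 kinases, was at 14.9 and 11.1 RPM, 26.5 and 30.3 RPM and 50.7 and 53.1 RPM (log2 change 1.93 ± 0.27). Each day lay above the day before for both. Fxyd6, a regulator of the sodium pump, was at 50.5 and 63.0 RPM and then 135 and 141 RPM, and Dennd2c, a regulator of Rab proteins, at 33.2 and 21.7 RPM and then 79.7 and 64.5 RPM (log2 changes 1.27 ± 0.14 and 1.38 ± 0.22). The 18 also hold 2410004A20Rik, to which no function is assigned here, at 20.3 and 13.3 RPM and then 109 and 92.7 RPM, and the 9 that fell hold BC048679, at 241 and 263 RPM and then 78.5 and 104 RPM. Both were named after their values were seen.

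The pluripotency list did not shift with these genes. Of 19 tested members Fgf4 rose and Lin28b fell, and the median was 0.05. Pou5f1, the core pluripotency factor Oct4, was at 630.0 and 495 RPM and then 475 and 521 RPM (adjusted p = 0.514), Nanog at 319 and 291 RPM and then 294 and 307 RPM (adjusted p = 0.963), and Sox2 at 422 and 390.4 RPM and then 368 and 366 RPM (adjusted p = 0.545). Day 3 and day 7 overlapped for Pou5f1 and Nanog, and both day 7 values of Sox2 lay below those of day 3. Among genes of primordial germ cell specification 1 of 16 tested rose, Stk31, and 1 fell, Dnd1 (median -0.08). Prdm1, which encodes Blimp1, Tfap2c, its partner in specification, and Kit, the receptor that germ cells need to survive and migrate, had adjusted p-values of 0.827, 0.866 and 1, with log2 changes of -0.09 ± 0.15, -0.07 ± 0.16 and 0.00 ± 0.17.

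In the list of epiblast and primed state genes 4 of 10 tested members rose and none fell (median 0.79). They were Otx2, a transcription factor of the epiblast and of the forebrain, from 2.35 and 2.22 RPM to 10.2 and 12.9 RPM, Zic5, a zinc finger factor, from 0 and 1.33 RPM to 13.4 and 5.86 RPM, and the Nodal antagonists Lefty1, from 27.4 and 27.1 RPM to 66.9 and 57.8 RPM, and Lefty2, from 5.48 and 9.32 RPM to 24.5 and 15.6 RPM. Fgf5, the gene most used to mark the primed state, was at 5.09 and 1.82 RPM and then 1.23 and 3.80 RPM, with overlapping groups (adjusted p = 0.746). None of the 4 calls was made without d4c3 replicate 1 (adjusted p = 0.161 for Otx2, 0.301 for Zic5, 0.121 for Lefty1 and 0.35 for Lefty2) or without d4c3 replicate 2 (0.111, 0.0521, 0.073 and 0.0589 in the same order), and none in the weighted fit. With d4c7 replicate 1 left out, Zic5 had an adjusted p of 0.123, Lefty1 of 0.0541 and Lefty2 of 0.177. In the BMP, Nodal and TGF-beta list, 2 of 26 tested genes rose, Lefty1 and Lefty2, and 2 fell, with a median of 0.05. The transcriptional regulators Id3 and Msx2 fell, from 231 and 174 RPM to 87.6 and 104 RPM and from 24.6 and 31.1 RPM to 7.59 and 12.0 RPM. The last 2 calls were lost without d4c3 replicate 1 (0.234 and 0.107) or d4c7 replicate 1 (0.055 and 0.0721), and that of Msx2 also without d4c3 replicate 2 (0.136).

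Targets of the tumour suppressor p53 had a median log2 change of 0.49, and 24 of 28 tested members were above 0, against 5659 of all 10856 tested genes. Of the 28, 7 rose and none fell. Bbc3, which encodes the pro-apoptotic protein Puma, was at 4.30 and 5.32 RPM and then 18.8 and 11.2 RPM. Psrc1, a protein of the mitotic spindle, was at 18 and 26.6 RPM and then 67.1 and 58.4 RPM, and Apaf1, the scaffold that activates caspases, at 28.9 and 28.4 RPM and then 66.8 and 45.3 RPM. The other 4 were Pmaip1, Phlda3, Trp53inp1 and Ei24. Mdm2, the ligase that degrades p53, was at 153 and 147 RPM and then 289.9 and 192 RPM (adjusted p = 0.0557), Cdkn1a, the p21 cell cycle inhibitor, at 10.2 and 20.4 RPM and then 21.2 and 21.0 RPM (adjusted p = 0.389), and Trp53 itself at 279 and 183 RPM and then 125 and 221 RPM (adjusted p = 0.819). Without d4c3 replicate 1 none of the 28 was called, without d4c7 replicate 1 it was 2, and in the weighted fit 1. In the fit without d4c3 replicate 1, Bbc3 had an adjusted p of 0.271, Psrc1 of 0.214 and Apaf1 of 0.193. The 3 calls were also lost without d4c7 replicate 1 (0.205, 0.0657 and 0.169), and those of Bbc3 and Apaf1 without d4c3 replicate 2 (0.121 and 0.138). In the list of the BCL2 family and caspases 3 of 25 rose, all of them named here, and Cycs fell (median 0.14).

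Called genes of DNA methylation changed in both directions. Dnmt3l, a cofactor of the de novo methyltransferases, was at 1.96 and 14.2 RPM at d4c3, 65.1 and 31.2 RPM at d4c5 and 178 and 41.0 RPM at d4c7. The groups did not overlap, but the libraries of each day lay far apart, and the call was not made when replicate 1 of d4c3 (adjusted p = 0.173) or of d4c7 (0.0557) was left out. It was listed at 0 in all 6 embryonic libraries. Dnmt3b, a de novo methyltransferase, was at 9.39 and 11.5 RPM and then 21.2 and 42.9 RPM (adjusted p = 0.0535), and Dnmt3a at 16 and 16.9 RPM and then 10.2 and 18.8 RPM (adjusted p = 0.755). Uhrf2, a relative of the maintenance factor Uhrf1, fell from 126 and 102 RPM to 61.6 and 73.4 RPM (0.161 without d4c3 replicate 1). Uhrf1 was at 6.65 and 12.4 RPM and then 8.25 and 12.2 RPM, Dnmt1, the maintenance methyltransferase, at 190.1 and 186 RPM and then 146 and 221 RPM, and Tet1, which oxidises methylcytosine, at 152 and 127 RPM and then 101 and 168 RPM, with overlapping groups for each. Their adjusted p-values were 0.894, 0.886 and 0.875.

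Housekeeping, metabolic and stress lists held few or no called genes. In limma, none was called among 65 splicing factors, 45 proteasome, 34 aminoacyl-tRNA synthetase, 23 heat shock, 21 unfolded protein response, 20 ATF4 and amino acid stress, and 17 H3K9 methylation genes tested, and their medians lay between -0.22 and 0.05. In the same order 4, 6, 7, 6, 1, 5 and 3 of them had an unadjusted p under 0.05, against 1797 of all 10856 tested genes. The weighted fit called none of them. In the cell cycle lists Rpa2, of replication protein A, rose among 43 tested S phase genes, Mad2l1, of the spindle checkpoint, fell among 36 G2 and mitosis genes, and Rb1, the retinoblastoma gene, rose among 21 G1 genes. Their values were 172 and 161 RPM and then 259.9 and 276 RPM for Rpa2, 219.8 and 203 RPM and then 145 and 133 RPM for Mad2l1, and 21.1 and 24 RPM and then 42.4 and 42.6 RPM for Rb1. All 3 lost the call without d4c3 replicate 1 (adjusted p = 0.0838, 0.145 and 0.167), and Rpa2 and Rb1 without d4c3 replicate 2 (0.0701 and 0.0532). In the cAMP list the median was 0.34, and 16 of 25 tested genes lay above 0. Of the 25, 8 had an unadjusted p under 0.05 in limma, against 1797 of all 10856 tested genes. The list summed to 697 and 681 RPM at d4c3 and to 764 and 770 RPM at d4c7. The 1 gene called was Adcy7, an adenylyl cyclase, which fell from 14.1 and 11.5 RPM to 2.75 and 3.62 RPM. It lost the call without either d4c3 library (adjusted p = 0.236 and 0.101) or without d4c7 replicate 1 (0.105). Among 15 tested fibroblast and stromal genes none was called (median 0.13, 11 above 0), as among 6 blood and endothelium, 6 endoderm and 3 gonadal somatic genes, and among 17 Hox genes by limma. Of all these, 1 fibroblast gene had an unadjusted p under 0.05, and the weighted fit called none. The 39 Hox rows summed to 2.15 and 3.58 RPM at d4c3 and to 5.92 and 0.898 RPM at d4c7. Of the 6 blood and endothelium genes, 1 had a log2 change above 0 and none below. With genes at or near 0 on both days a call could hardly be made, so nothing is read from its absence in these lists.

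**Figure D3:**
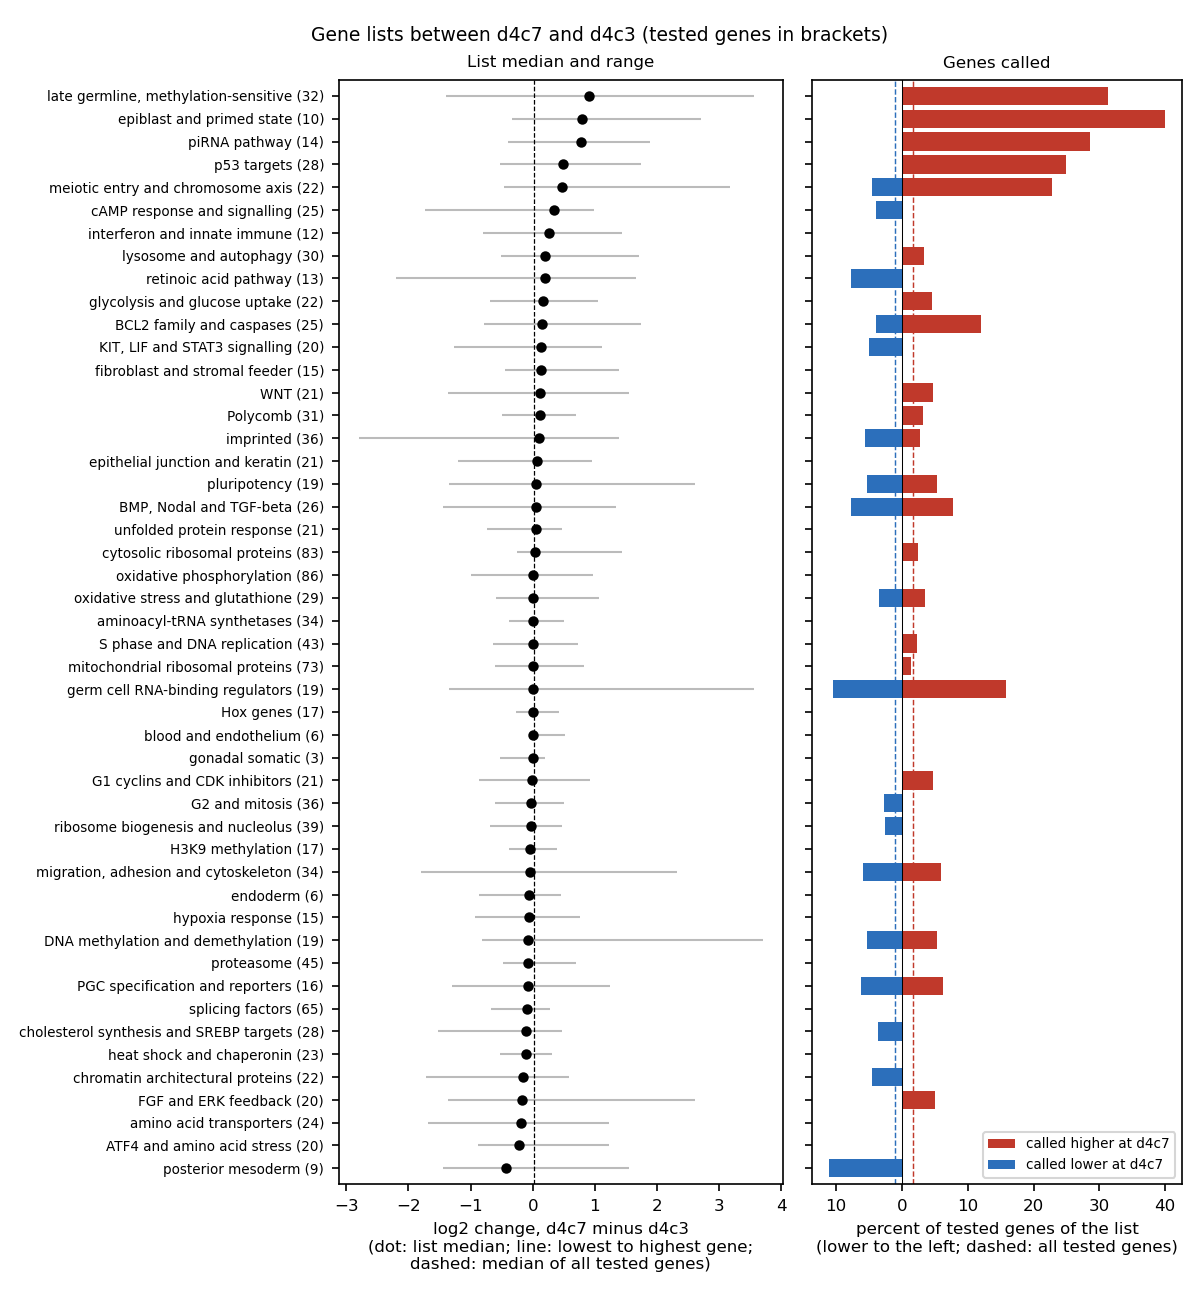
The left panel gives, for each of the 48 lists with the number of tested genes in brackets, the median log2 change from d4c3 to d4c7 as a dot and the range of its genes as a line, with the median of all tested genes dashed; the right panel gives the percent of tested genes called higher (right of 0) and lower (left of 0), with the shares over all tested genes dashed at 1.67% and 1.08%. Late germ cell, epiblast, piRNA, p53 and meiotic lists stand at the top with medians of 0.48 to 0.90, and most other medians lie near 0.

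In 23 of the 27 genes both day 5 values lay between the day 3 and the day 7 values, and in 184 of all 298 called genes. Among the 4486 tested genes with separated day 3 and day 7 values it was 14.6%. Called genes were chosen for a wide separation of these days, so nothing is read from the difference. The exceptions among the 27 were Dazl and Dennd2c, whose day 5 values overlapped those of day 7, Rbm44, described above, and Stra8, which at day 5 was still at the level of day 3. The day 5 libraries entered the shared estimate of spread, and these counts are a description.

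Genes called in culture were set beside the change of embryonic germ cells from E9.5 to E12.5. This contrast shares no library with the culture contrast. The embryonic libraries did enter the shared estimate of spread and the 5 RPM filter, so the 2 selections are not independent. By the labels, strain, reporter, sort and RNA amount differ between culture and embryo but not within either contrast. The ERCC spike-in RNAs did differ within the embryonic contrast. They summed to 1372 and 628 RPM at E9.5 and to 12107 to 16494 RPM at E12.5, and the cause was not tested. Markers of other cells moved with the embryonic contrast: 5 blood and endothelium markers summed to 3191 and 2783 RPM at E9.5 and to 5.94 to 13.6 RPM at E12.5, 8 feeder and stroma markers to 128 and 128 RPM and then 1.52 to 4.82 RPM, and 4 endoderm markers to 25.4 and 30.9 RPM and then 1.56 to 2.71 RPM. Their part in the overlaps given next, those with genes lower at E12.5 included, was not tested. In males, 87 of the 181 genes that rose in culture (48.1%) were at least 2-fold higher at E12.5 without overlap, against 9.28% of all tested genes, and in females 77 (42.5%), against 10.1%. These make up 8.64% and 7.05% of all genes higher in the embryo, and 69 were higher in both sexes, which share the E9.5 libraries. Of the 117 that fell in culture, 53 (45.3%) were at least 2-fold lower in males, against 11% of tested genes, and 29 (24.8%) in females, against 9.61%. The opposite direction in the embryo was seen for 7 of the 181 in each sex, and for 4 of the 117 in males and 6 in females. Across all tested genes the culture and embryo changes correlated at Pearson r = 0.278 in males and 0.236 in females, as a description, since genes are not independent.

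Of the 18 genes that rose and held without each library, 14 were higher in males and 13 in females, 12 of them in both. Dazl reached 1163 and 1185 RPM in males and 1245 and 1191 RPM in females, from 12.9 and 9.44 RPM at E9.5, so its day 7 level lay between. Hormad1 was at 3.68 and 4.72 RPM at E9.5 and 74.1 and 64.6 RPM in males, and of its d4c7 values, 69.1 and 48.0 RPM, the first lay within the male range and the second below it. Stra8 was at 37.0 and 38 RPM in females and 1.25 and 0.301 RPM in males, with d4c7 between them. Hesx1 was at 26.9 and 33.1 RPM in males and 1.21 and 2.51 RPM in females, so the d4c7 values lay above the male level. Other genes did not follow the embryo. Fgf4 was at 0 to 0.236 RPM in all 6 embryonic libraries, and Rtkn went from 5.88 and 4.01 RPM at E9.5 down to 1.56 and 0.903 RPM in males and 1.82 and 1.51 RPM in females. Dusp16 reached at most 9.70 RPM in the embryo, below each d4c3 library.

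Of the 9 genes that fell and held, 6 were also lower in each sex, 5 of them in both. Phlda2 was at 304 and 306 RPM at E9.5, 5.63 and 5.72 RPM in males and 468 and 490.3 RPM in females, so the 2 sexes went opposite ways and the d4c7 libraries, at 24.3 and 29.0 RPM, lay above the male level. Dnd1, which fell in culture, was at 218 and 190.4 RPM at E9.5, 242 and 265 RPM in males and 337 and 349 RPM in females, so all 6 embryonic libraries were above both d4c3 libraries and the fall in culture had no counterpart there.

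**Figure D4:**
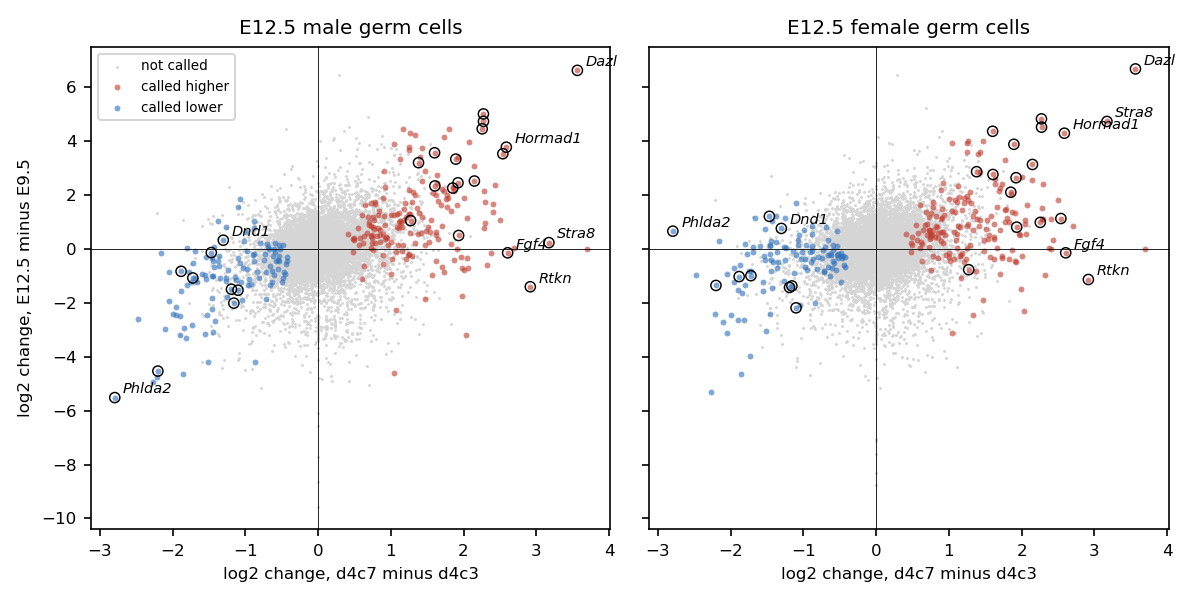
Each point is a tested gene, with its log2 change from d4c3 to d4c7 on the x axis and from E9.5 to E12.5 on the y axis, in males (left) and females (right); red and blue points are genes called higher and lower in culture, and circles those called also without each library. Dazl and Hormad1 lie high in both panels, Stra8 only in the female one, and Phlda2 low only in the male one.

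Motifs were searched in the RefSeq promoters of the genes that rose and held without each library. Promoters of 300 bases were found for 17 of the 18 genes. The 6-base motif CACGTG, the E-box bound by MAX and MYC, was in 2 of the 17 on either strand, TCCCGC, of E2F factors, in 7, the cAMP response element TGACGTCA in none, the CCAAT box in 11 and GGGCGG, of SP factors, in 5. None of these motifs contains another. Among the 8460 tested genes with a promoter the shares were 10.9%, 37.7%, 3.56%, 40.5% and 67.5%, and among all 27025 RefSeq promoters they were 7.24%, 20.0%, 1.88%, 37.9% and 35.9%. The median number of CpG was 15 in the 17 promoters and 22 in those of tested genes. In the windows printed above, Hormad1 held the E-box and the E2F motif, Tuba3a the E2F motif, the CCAAT box and the SP motif, Dazl and Stra8 the CCAAT box, and Phlda2 the CCAAT box and the SP motif. A promoter was found for 77.9% of the tested genes, under 80%, so the comparison with them is void. No motif says that a factor binds there.

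Replicates at day 7 differed more than those at day 3, by a root mean square of 0.56 against 0.42 on the log2 scale, and 7.89% of tested genes differed at least 2-fold between them, against 5.09% at day 5 and 3.11% at day 3. The same genes often differed between the replicates of day 5. Actb, cytoplasmic actin, was at 177 and 513 RPM at d4c5 and 179 and 573 RPM at d4c7, and Fn1, fibronectin, at 171 and 397 RPM and 113 and 417 RPM, while at d4c3 Actb was at 516 and 453 RPM and Fn1 at 308 and 361 RPM. Replicate 2 was the higher for both genes on both days. The membrane-binding gene Anxa2 went the other way, at 259.9 and 99.4 RPM and 304 and 91.5 RPM. So did the sum of the 8 feeder and stroma markers, at 54.9 and 10.5 RPM at d4c5 and 24.7 and 8.45 RPM at d4c7. The collagen gene Col3a1 was at 39.7 and 0.904 RPM and then 9.42 and 1.55 RPM. Not every marker went this way, since Pdgfrb was at 6.23 and 7.68 RPM at d4c5. The part of these markers in the differences between replicates was not tested. In all, 132 genes were at least 2-fold higher and 53 at least 2-fold lower in replicate 2 on both days, and 14 differed in opposite directions. Calls between days 7 and 3 covered 5 of the 185 that differed alike, against 2.75% of all tested genes. Across tested genes the difference between replicates correlated at r = 0.455 between day 5 and day 7, at 0.131 between day 3 and day 7, at 0.116 between day 3 and day 5, and at -0.043 to 0.029 between culture and embryo.

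**Figure D5:**
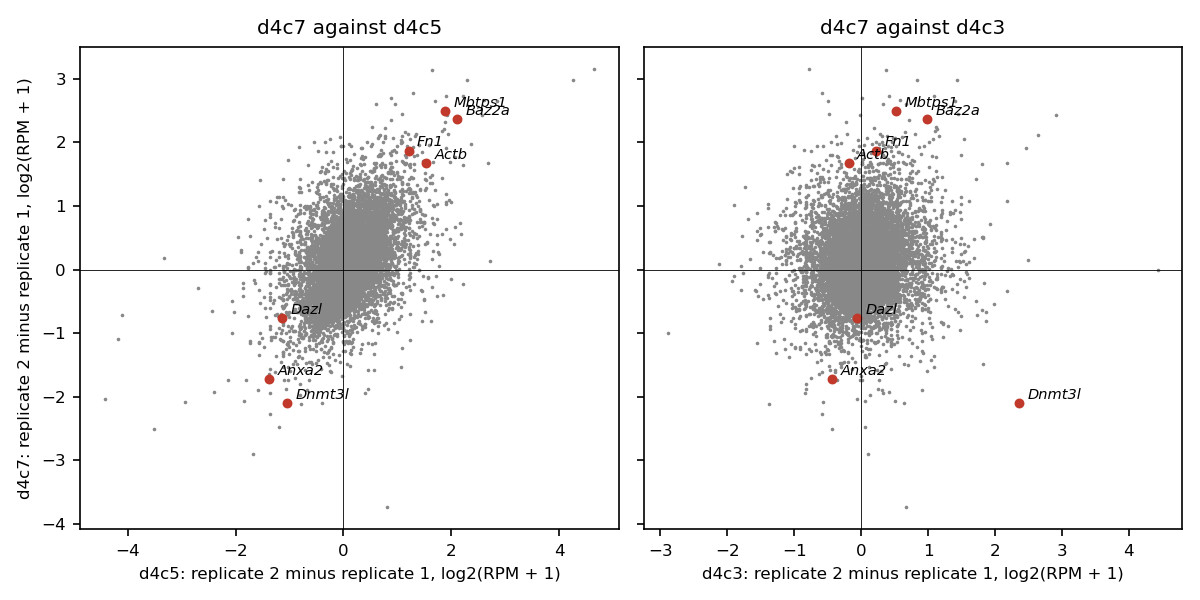
Each point is a tested gene, with the difference between replicates 2 and 1 of d4c7 on the y axis against that of d4c5 (left) and d4c3 (right) on the x axis, in log2(RPM + 1). Points lie along the rising diagonal on the left, with Mbtps1, Baz2a, Fn1 and Actb at the top right and Dnmt3l and Anxa2 at the bottom left, and form a rounder cloud on the right.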

How the data were processed

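The deposited table gives RPM, reads that the authors scaled to 1e+06 reads in genes. Tools listed in the submitters' processing notes, without roles, are TopHat 1.4.1, Cufflinks 2.2.0 and cutadapt 1.3, and the build is mm10. Between 81.8% and 87.4% of values up to 20 reads were whole within 0.1 read, so counts were not recovered. Floors of 3 reads cover counting error only. ERCC rows (92) stayed out of the tests.

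All 12 libraries entered 1 limma 3.58.1 fit (R 4.3.3) of log2(RPM + 1) with a mean per group, moderated with a mean-variance trend, and Benjamini-Hochberg adjustment over the tested genes (6 residual and 8.02 prior degrees of freedom). The procedure was tested on simulated data, with noise drawn independently for each library and of the same size for all genes of a group. This does not cover noise that varies by gene or differences shared between replicates of several days. SE is the model's, and n = 2 libraries per group. Alternatives changed the pseudocount, filter, libraries, weights, scaling and replicate block.

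The comparison, the 48 lists (1234 tested genes), tests and alternatives were chosen with earlier results of these data known. Named genes were, up to a fixed number each, those called also without each library, called list members, the largest RPM differences, genes going from under 1 to at least 5 RPM, the widest replicate ratios and 10 fixed genes, leaving out predicted genes. Members of lists that were not called, and genes said to be so, were named after their values were seen. Of the 27 genes called also without each library, 1 that fell is not reported here.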

Additional observations from a re-analysis of the deposited data

How the results depend on the processing

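The 298 calls became 231 with a pseudocount of 0.1 RPM, 331 with 5 RPM, 237 with a minimum of 20 RPM and 313 with medians of log ratios set to 0 (173 higher, 140 lower). Without a filter 112 of 18245 genes were called, with array weights 112, in the 6 culture libraries 1 (1275 at an unadjusted p under 0.05) and in the 4 compared libraries 0 (1084 at an unadjusted p under 0.05). Leaving out a library gave 31 to 786 calls. The cause of these moves was not tested. Replicate numbers name no shared culture in the sources, and with 2 libraries per group they do not establish a pairing. With the replicate number as a block in the 6 culture libraries, 32 genes were called, 31 of them among the 298. They hold 22 of the 27 genes called also without each library, and not Gpat2, Trib2, Rtkn, Rbm44 and Tuba3b (adjusted p = 0.0631, 0.0631, 0.0595, 0.0753 and 0.0522). Of 79 named genes called, 0 changed direction under any alternative. Their day 3 and day 7 values did not overlap, so only the scaling by medians could have turned a direction. The call was kept by 77 under medians of log ratios, by 49 with array weights and by 22 with the block. Fewer kept it without d4c3 replicate 1 than without d4c7 replicate 2. Scaling to ERCC RNAs was not run, since d4c7 replicate 2 holds none. Depth limits genes under about 1.33 RPM.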

Other observations

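The genes named in this section were chosen after their values were seen, and none of those named was called with every library left out in turn. Of the 117 called genes that fell, 5 are given here. Nrk, a kinase of the placental spongiotrophoblast, was at 50.5 and 24 RPM at d4c3 and 8.64 and 3.27 RPM at d4c7, Gcm1, a regulator of syncytiotrophoblast, at 26.6 and 23.1 RPM and 10.7 and 6.55 RPM, and Plac8 at 15.3 and 7.10 RPM and 1.57 and 2.24 RPM. Slc40a1, the iron exporter ferroportin, was at 125 and 110.5 RPM and 35.7 and 33.8 RPM, and Pygl, a glycogen phosphorylase, at 25.8 and 25.3 RPM and 7.85 and 8.27 RPM. The groups of each gene stood apart. The highest adjusted p with a library left out was 0.126 for Nrk, 0.268 for Gcm1, 0.301 for Plac8, 0.0694 for Slc40a1 and 0.0838 for Pygl.

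Dmrt1 and Dmrt3, of the DM domain family of transcription factors, were among the genes that rose. Dmrt1, which germ cells and Sertoli cells express, was at 20.7 and 28.8 RPM at d4c3, 44.8 and 40.2 RPM at d4c5 and 59.7 and 73.6 RPM at d4c7, and Dmrt3 at 2.74 and 3.99 RPM, 12.9 and 7.23 RPM and 25.9 and 15.3 RPM (highest adjusted p with a library left out 0.161 and 0.0845). Ooep, known from the maternal complex of the egg, was at 39.2 and 45.2 RPM and then 127 and 87.9 RPM. In the X-linked Rhox homeobox cluster, 20 of 31 rows were tested, and Rhox2a, Rhox2d, Rhox2g and Rhox7 rose and none fell. The cluster did not rise as a whole, since 11 of the 20 had a log2 change above 0. All tested Rhox4 copies lay below 0, from -0.22 to -0.72, and were not called. Rhox5, at 1089 and 1079 RPM and then 1196 and 1080 RPM, and Rhox9, at 1035 and 1199 RPM and then 988 and 975 RPM, were not called either (limma, adjusted p = 0.806 and 0.505). Copies of Rhox2 are alike, so reads may be shared among them. Of the 117 genes that fell, 16 lay on the X chromosome, 3.91% of its 409 tested genes against 1.08% of all tested genes. Of the 181 that rose it was 9, 2.2% against 1.67%. No test of these shares was made.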
